A study of Mus musculus with 27 samples.

Results

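Forelimb bud mesenchyme grown from mouse embryonic stem (ES) cells, termed ES-FLB, was compared with the early embryonic forelimb bud (early FLB), gene by gene. The comparison takes in 6 of the 27 RNA-seq libraries of the series, 3 of ES-FLB and 3 of early FLB, and 13129 of the 23279 listed genes passed the filter on low values and were tested. The question it addresses is which genes a limb bud made in a dish expresses at another level than the bud it is meant to resemble. ES-FLB cells came from the ES line EB5 Hand2::GFP +/-, which carries a fluorescent reporter in 1 allele of Hand2, a transcription factor gene of limb bud mesenchyme. Aggregates of 3000 cells received BMP4 and matrigel from day 1 to day 5, and retinoic acid (RA) from day 5 to day 6. The BMP inhibitor LDN193189 and Wnt3 followed step by step, between day 7 and day 9 by the labels; the study's methods put the inhibitor before day 7, Wnt3 after it, and wash both out before the last day. At day 9 they were trypsinized and the reporter-positive mesenchyme was collected by FACS. Early FLBs are labelled E10.0 and came from embryos of the Slc:ICR strain; they were amputated whole, and no dissociation or sorting is named for them. The hindlimb groups used beside them are ES-HLB, from the same line with an RA antagonist in place of RA, and early HLB, labelled E10.0 and Slc:ICR as well; E10.5 FLBs of that strain are given for reference. The study's text gives the early FLBs a younger stage than the early HLBs, at odds with the shared label, so that limb type and embryonic stage cannot be told apart where the 2 pairs are compared. ES line and mouse strain, culture and embryo, sorted cells and whole tissue, and dissociated and intact material therefore all differ between the groups at once and cannot be told apart. EB5 is a single line, the cells of each ES-FLB library were pooled from many aggregates, and the labels do not say whether the 3 libraries came from separate cultures, so p-values measure the spread between these libraries.

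A limb bud is a core of mesenchyme from the lateral plate, wrapped in ectoderm whose distal rim, the apical ectodermal ridge (AER), secretes FGFs, and invaded by vessels, blood and muscle precursors. Tbx5 starts the forelimb programme and switches on Fgf10. Hand2 marks the posterior mesenchyme, where Shh is made, and Gli1 and Ptch1 are read as outputs of the hedgehog signal. Hox genes of the Hoxa and Hoxd clusters are switched on in order as the bud grows out.

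Reads per library were estimated from the value of 1 read at 7212041 to 7723195 for ES-FLB and 21010434 to 22142313 for early FLB. A floor of 3 reads lies at 0.370 to 0.396 CPM (counts per 1000000 reads, after scaling) per ES-FLB library and at 0.153 to 0.158 CPM per early FLB library. Across the tested genes, Pearson's r between libraries was 0.993 to 0.994 within ES-FLB, 0.995 to 0.996 within early FLB and 0.857 to 0.865 between the groups. No 2 libraries of a group agreed within sampling noise (chi-square per degree of freedom of 1.74 to 2.19 in ES-FLB and 6.24 to 8.26 in early FLB). At a given relative spread this measure grows with depth, so its values do not rank the groups. Among genes of at least 16 CPM the median log2 range was 0.128 in ES-FLB and 0.120 in early FLB. Replicate 3 of the early FLBs stood apart. Of 19 genes that spread more than 2-fold among the early FLB libraries, it was the farthest library for 13, with low Hoxd10, Hoxa11, Tbx15 and Hba-a1 and high Acta2, Lum, Postn and Gata4. In ES-FLB only 3 of 8553 genes of at least 16 CPM spread that far, among them Slc16a3, a lactate transporter, at 58.7, 23.5 and 30.4 CPM.

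The labelled tissue was checked against its defining markers. Tbx5 was present in all 6 libraries, at 73.1, 68.1 and 73.9 CPM in ES-FLB and 101, 95.7 and 97.5 CPM in early FLB. Prrx1, a limb mesenchyme homeobox gene, stood at 458 to 473 CPM against 336 to 412 CPM, and Pdgfra, a receptor of mesenchymal cells, at 709 to 816 CPM against 217 to 252 CPM. Summed over the 38 limb field mesenchyme factors, the level was 4206 to 4276 CPM per ES-FLB library and 4190 to 4575 CPM per early FLB library, so the groups overlapped. The overlap came from early FLB replicate 3 alone, as replicates 1 and 2 had 4447 and 4575 CPM. The other cell types of a bud were not equally present. The 27 endothelial markers summed to 109 to 118 CPM in ES-FLB and 783 to 837 CPM in early FLB, the 14 listed erythroid markers to 9.87 to 11.2 CPM against 2411 to 4489 CPM, and the 38 listed markers of limb ectoderm and AER to 295 to 377 CPM against 1013 to 1214 CPM. These differences move with every gene group described here, and their part in them was not tested. As the samples are bulk RNA, fewer cells of a type and less RNA per cell cannot be told apart.

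**Figure D1:**
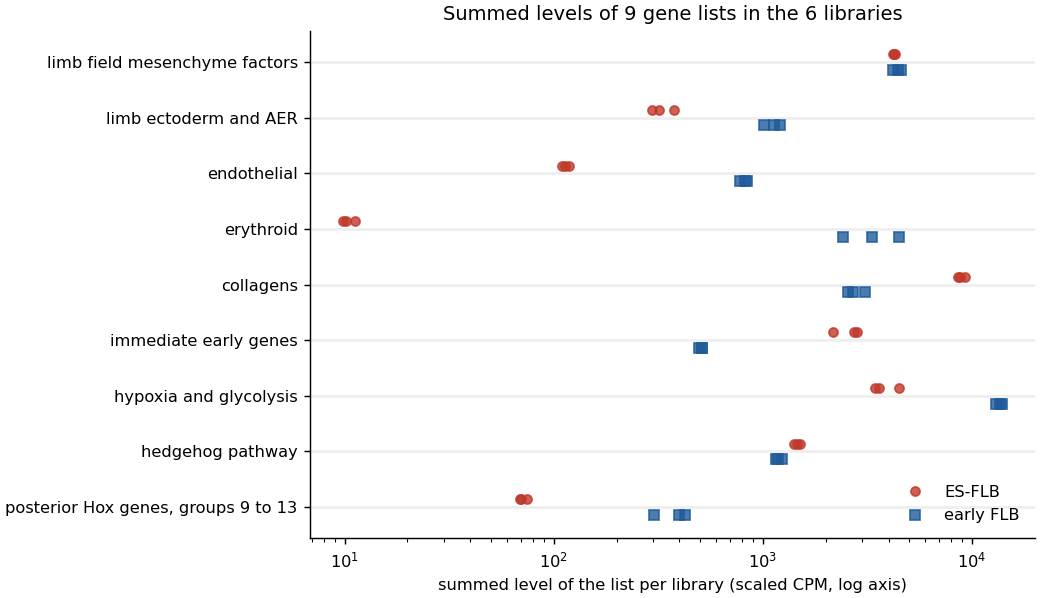
Summed level of 9 gene lists in each library (scaled CPM, log axis; red circles, the 3 ES-FLB libraries; blue squares, the 3 early FLB libraries). The limb field list overlaps between the groups through early FLB replicate 3 alone. The erythroid list lies at 9.87 to 11.2 CPM against 2411 to 4489 CPM, and the collagen and immediate early lists lie higher in all 3 ES-FLB libraries.

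A gene is called here when limma's adjusted p is below 0.001 and the difference is at least 2-fold, on the scale of log2(CPM + 0.5). By that rule 2253 genes, or 17.2% of those tested, were higher in ES-FLB and 1564 genes, or 11.9%, were lower. These shares are the background against which each list below is to be read. In 35 of the 43 lists some tested members reached 1 CPM in 1 group only, so counts over a list's tested members are partly fixed by the filter on low values and are a description. An adjusted p below 0.001 without the fold minimum was reached by 32.4% of the genes in the higher direction and 33.3% in the lower. The 3 libraries of each group did not overlap for 41.5% of the genes in the higher direction and 41.9% in the lower, so a lack of overlap is common here. With CPM as deposited instead of scaled CPM, the median difference of all genes moved from 0.00 to 0.23 (log2) and the share of higher genes among the calls from 59.0% to 72.1%; the differences given are relative to the scaled median.

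The largest differences were ranked over those called genes whose higher group averaged 16 CPM or more and whose libraries did not overlap. Angiotensin receptor gene Agtr2 headed the rises. It was listed at 0 in all 3 early FLB libraries and stood at 72.4, 71.3 and 78.4 CPM in ES-FLB, at least 1428-fold higher against a floor of 3 reads over the group. Fos, an AP-1 transcription factor gene, followed with 151, 102 and 166 CPM against 0.780, 0.764 and 0.895 CPM. The protocadherin gene Pcdh10 was at 149 to 182 CPM against 0.843 to 1.68 CPM. Both nuclear factor I genes among the rises had narrow spreads: Nfix was at 47.5 to 49.8 CPM in ES-FLB and 1 or 2 reads per library in early FLB (0.0509 to 0.104 CPM), and Nfib was at 249 to 294 CPM against 5.06 to 6.50 CPM. Enpp2, the enzyme that makes lysophosphatidic acid, the surface glycoprotein gene Thy1, the zinc finger gene Egr1, the homeobox gene Six2, Mab21l1, AW549542 and the long non-coding RNA gene 2610203C20Rik completed the 12 largest. Their log2 differences lay between 5.45 and 7.22, with adjusted p (limma) of 2.4e-06 or less.

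The 12 largest falls began with blood. The embryonic globin genes Hbb-bh1, Hba-x and Hbb-y had means of 1099, 817 and 1216 CPM in early FLB and of 1.40, 1.65 and 3.03 CPM in ES-FLB, and Hba-a1 and the red cell anion exchanger gene Slc4a1 fell with them. Xist, the RNA of X inactivation, was at 247 to 364 CPM in early FLB and at 0.124 to 0.792 CPM in ES-FLB. Y-linked genes were detected in both groups, and the part of sex in the Xist difference was not tested. The imprinted adaptor gene Grb10 was at 1606 to 1688 CPM against 7.00 to 11.9 CPM. Lin28a, an RNA-binding protein gene that blocks let-7 maturation, was at 435 to 457 CPM against 2.96 to 4.32 CPM. The caudal homeobox gene Cdx1 was at 45.1, 50.3 and 46.1 CPM against a total of 2 reads over the 3 ES-FLB libraries, a ratio of 561 (95% exact interval 155 to 4635, counting error only). Wnt7a, the dorsal ectoderm signal, was at 32.2 to 42.5 CPM against 3 reads in all, a ratio of 284 (97.0 to 1378). Igdcc3 and Gm1821 made up the rest of the 12, whose log2 differences lay between -5.79 and -9.17, with adjusted p of 5.1e-05 or less.

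**Figure D2:**
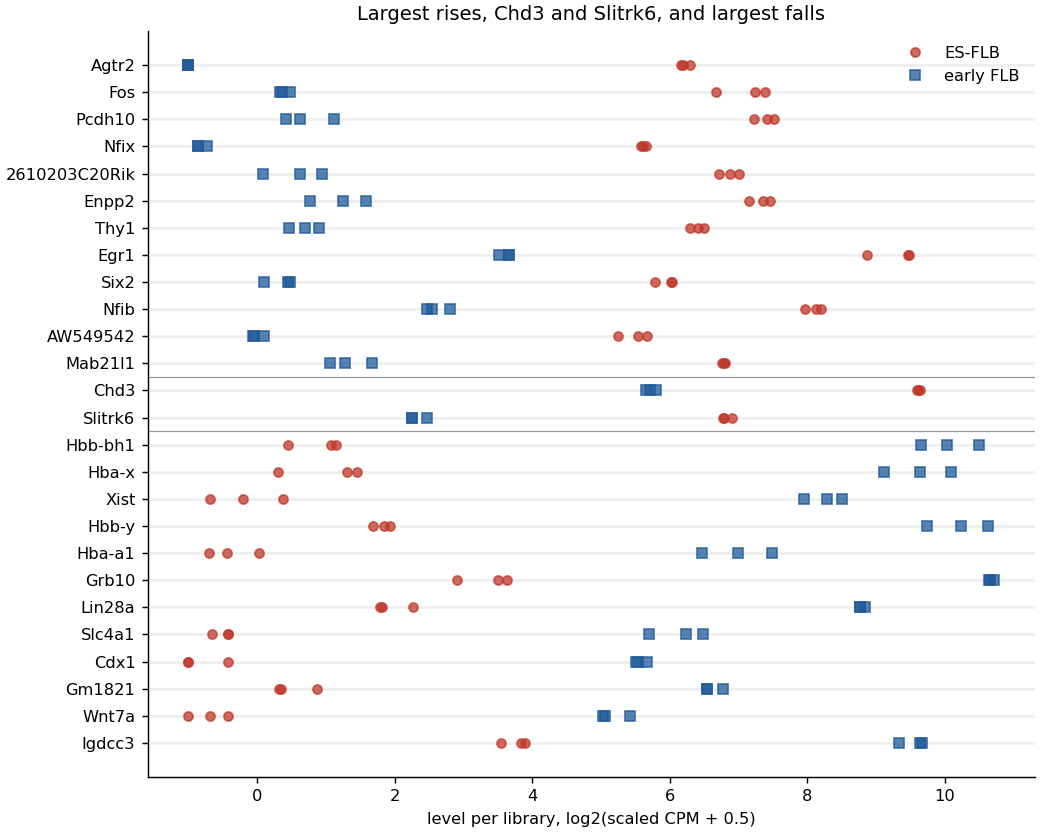
Level in each library, as log2(scaled CPM + 0.5), of the 12 largest rises (top), Chd3 and Slitrk6 (middle) and the 12 largest falls (bottom); red circles are ES-FLB, blue squares early FLB. No gene shown overlaps between the groups, and Agtr2 sits at the lowest possible value, -1, in all 3 early FLB libraries.

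Chd3, which encodes an ATPase of the NuRD chromatin remodelling complex and lies on chromosome 11 (GRCm38, 69343273 to 69369499), was the first of 2 genes singled out for this comparison. It was at 797, 779 and 775 CPM in ES-FLB and 55.2, 52.0 and 49.8 CPM in early FLB, 15.0-fold higher by the means (log2 difference 3.89 ± 0.05 SE, adjusted p = 2.0e-18). In E10.5 FLBs it was at 322 to 373 CPM. Of 10 genes for Chd remodelers 4 were called higher (40%, against 17.2% of all genes tested), Chd5, Chd6 and Chd9 besides Chd3. Among the 4 rises 1 passed the filter on low values through ES-FLB alone. Chd6 lost its call with a trimmed mean over the compared libraries (log2 0.94) and without early FLB replicate 2 (0.97). Chd7 fell from 232 ± 16.2 to 63.0 ± 4.19 CPM (SD, n = 3). The paralogue Chd4, also a NuRD ATPase, was at 830 CPM against 938 CPM and was not called.

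Slitrk6, a gene for a transmembrane protein with leucine-rich repeats best known from sensory neurons (chromosome 14, 110747338 to 110755204), was at 109, 120 and 110 CPM in ES-FLB and 5.04, 4.28 and 4.27 CPM in early FLB. That is a 25.0-fold difference (log2 4.50 ± 0.09 SE, adjusted p = 7.7e-16), and E10.5 FLBs had 42.9 to 51.3 CPM. Of 10 listed Slitrk and Lrrtm genes 6 were tested. Slitrk5, at 27.4 CPM against 6.38 CPM, and Lrrtm1, at 8.09 CPM against 2.07 CPM, rose too, and Slitrk4 was not called. Slitrk2 and Slitrk1 were also called higher, but passed the filter on low values through ES-FLB alone.

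Among the largest rises, 2610203C20Rik is the gene that RefSeq names Mir100hg, on chromosome 9 (41376526 to 41615185, plus strand). It was at 128, 105 and 117 CPM in ES-FLB and at 1.04, 0.560 and 1.42 CPM in early FLB. Dnm3os, on chromosome 1 (162217623 to 162225550, plus strand) and picked out after its values were seen, was at 298, 222 and 221 CPM against 6.65, 4.62 and 4.95 CPM. Both host microRNA genes on their own strand: Mir100, Mirlet7a-2 and Mir125b-1 lie within the first, Mir199a-2 and Mir214 within the second. Levels of the mature microRNAs were not measured, and only the host RNAs are reported. The mature sequences from RefSeq (GRCm38.p6) are shown as products of these 2 loci, with let-7a-5p named only; capitals mark the seed, bases 2 to 8, and no 2 of those shown share one.
miR-100-5p: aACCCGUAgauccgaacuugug
miR-125b-5p: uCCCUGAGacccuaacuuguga
miR-199a-5p: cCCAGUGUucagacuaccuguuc
miR-199a-3p: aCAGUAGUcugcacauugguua
miR-214-3p: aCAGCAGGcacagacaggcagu

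Genes tied to Lin28 and let-7 were lower or not called. Of 10 listed genes 9 were tested, and 5 were called lower and none higher (adjusted p, limma; background 11.9% lower), with a median difference of -1.78, and at an unadjusted p below 0.05 all 9 were lower. Lin28b, the second Lin28 gene, was at 339, 315 and 326 CPM in early FLB and 15.3, 18.1 and 17.8 CPM in ES-FLB. Trim71, Hmga1 and Igf2bp1, which are among the known targets of let-7, had means of 80.6, 220 and 660 CPM in early FLB and of 5.22, 20.6 and 192 CPM in ES-FLB. Hmga2, another known target, was at 1159 CPM against 850 CPM and was not called. In E10.5 FLBs Lin28a was at 7.12 to 13.6 CPM and Mir100hg at 41.3 to 71.6 CPM, both between the values of the 2 groups compared.

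Transcription factor genes of the limb field changed in both directions. Of 38 tested, 7 (18.4%) were called higher and 12 (31.6%) lower (median -0.18). The shares of all genes were 17.2% and 11.9%, so the share of rises was near the background. In each direction 1 of the called genes passed the filter on low values through its higher group alone. Hand2, the gene of the sorted reporter, was at 165, 167 and 143 CPM against 80.1, 84.1 and 104 CPM, without overlap but with a log2 difference of 0.83, short of the 2-fold minimum. Tbx5 was 0.45 lower on the log2 scale and not called. Pbx2, a partner of Hox proteins, was at 170 CPM against 277 CPM, Meis2 and Twist1 at 338 CPM against 262 CPM and 460 CPM against 311 CPM, and none of these 3 was called. The largest falls of the list included genes of dorsal and distal mesenchyme. Lmx1b, the dorsal selector, was at 49.5, 47.0 and 36.2 CPM in early FLB and 0.865, 0.528 and 1.97 CPM in ES-FLB. Lhx9 and Lhx2, LIM homeobox genes of the distal mesenchyme, had means of 130 and 115 CPM against 4.84 and 6.73 CPM, and Msx1 of 216 CPM against 42.6 CPM. Sall4, Sall3, Asb4, Emx2, Zbtb16, Msx2 and Etv2, the last a factor of blood and vessels, fell as well.

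The 7 rises of the same list were Osr1, Osr2, Tbx2, Isl1, Snai2, Meis1 and Irx5. Osr1 and Osr2, odd-skipped genes of connective tissue and joints, were at 73.4 to 81.1 CPM against 2.48 to 2.70 CPM and 31.5 to 38.1 CPM against 0.105 to 0.611 CPM. Tbx2, a T-box repressor gene of the bud margins, was at 436, 407 and 422 CPM against 32.8, 39.7 and 40.1 CPM. Isl1, known from the hindlimb field and the second heart field, was at 20.2 to 26.7 CPM against 1.92 to 2.63 CPM, whereas the hindlimb selectors Pitx1 (7.50 CPM against 7.72 CPM) and Tbx4 (3.04 CPM against 0.760 CPM) were not called. Lineage factors from other lists rose as well: Scx, the tendon factor, was at 13.4 to 17.7 CPM against 1.40 to 1.68 CPM, Runx1 at 26.9 CPM against 0.744 CPM, and Runx2, the bone factor, at 65.0 CPM against 2.27 CPM.

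All 8 tested genes of the Hoxd cluster (chromosome 2) were called lower, a count picked out after the values were seen. The call of Hoxd11 was lost with a pseudocount of 2, with limma without trend and robust, and without replicate 1 or 2 of the early FLBs (adjusted p up to 0.0019, limma), and that of Hoxd13 with a pseudocount of 2. Hoxd9 was at 185, 200 and 141 CPM in early FLB and 5.56, 5.55 and 3.95 CPM in ES-FLB. Hoxd10 was at 49.6, 54.6 and 26.5 CPM against 0.741, 0.264 and 0.740 CPM, a log2 difference of -5.32 ± 0.31 SE. Hoxd11 was low in both, at 1.26 to 2.65 CPM against 0.494 to 0.617 CPM, and Hoxd13 was at 3.90 to 6.72 CPM against 1.48 to 2.11 CPM. Hoxd10 and Hoxd11 passed the filter on low values through early FLB alone, so their direction was largely fixed by the filter. The other clusters held fewer calls. In the Hoxb cluster 5 of 9 genes fell and none rose (5 and 3 at an unadjusted p below 0.05, limma), from Hoxb1 (20.5 CPM against 0.167 CPM) to Hoxb9 (63.3 CPM against 5.20 CPM), while Hoxb2 to Hoxb5 were not called. In the Hoxa cluster 3 of 10 fell and Hoxa2 rose from 10.9 to 45.5 CPM; Hoxa5 (60.5 CPM against 61.6 CPM) and Hoxa10 (23.2 CPM against 22.3 CPM) were not called. In the Hoxc cluster Hoxc8 fell, Hoxc10 rose from 0.121 to 5.55 CPM and 4 of 6 were not called. By paralogue group, 11 of 23 genes of groups 1 to 8 and 6 of 10 of groups 9 to 13 fell, against the background of 11.9%. In each of these 2 sets 2 genes passed the filter through early FLB alone. Among members that reached 1 CPM in both groups, 9 of 21 and 4 of 7 fell.

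**Figure D3:**
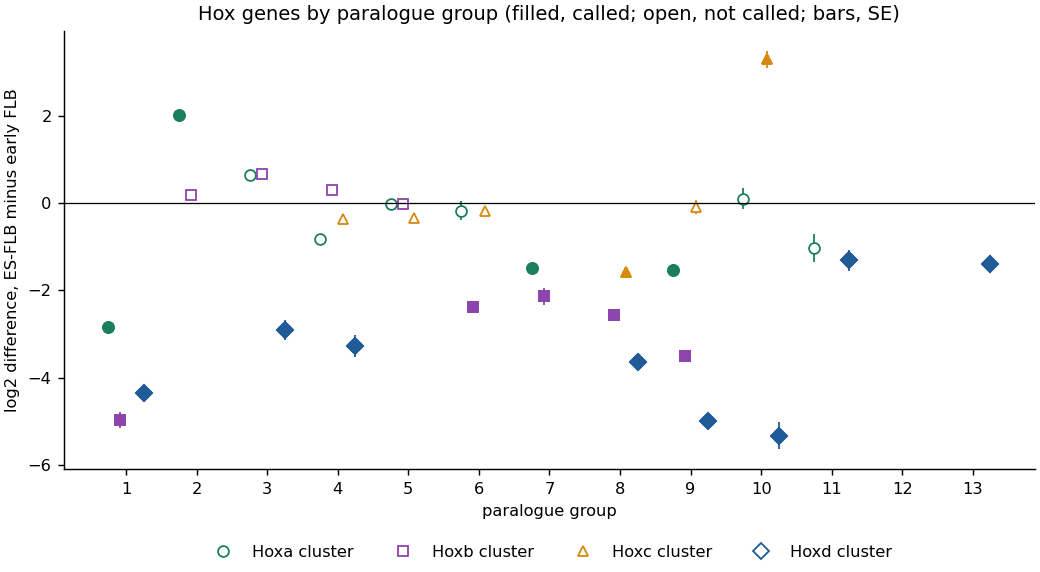
Log2 difference, ES-FLB minus early FLB, of the tested Hox genes by paralogue group (bars, SE; filled symbols, called; open symbols, not called). The 8 Hoxd genes (diamonds) all lie below -1, and Hoxa2 and Hoxc10 are the filled symbols above 0.

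Known hedgehog target genes were higher in ES-FLB. Gli1 was at 146, 144 and 154 CPM in ES-FLB and 4.73, 3.46 and 3.53 CPM in early FLB, 37.9-fold higher by the means. Of 13 tested genes of the pathway 5 rose and none fell, with a median of 1.62; at an unadjusted p below 0.05 (limma) 8 were higher and 3 lower. Among these, besides Gli1, were the receptor gene Ptch1 (147 CPM against 29.6 CPM), the decoy receptor gene Hhip (28.2 CPM against 1.61 CPM) and the co-receptor gene Boc (121 CPM against 26.8 CPM). Gli1, Ptch1 and Hhip are known targets of the signal as well as parts of the pathway. The ligand gene Shh itself was low, at 1.98, 2.24 and 5.43 CPM against 1.14, 0.509 and 0.105 CPM, and was not called; Gli2, Smo and Sufu were not called either, and Gli3, the repressor gene, was at 132 CPM against 256 CPM, also not called.

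FGF ligand and receptor genes split, with 4 of 11 called higher and 3 lower. Fgf8, the ligand of the AER, was at 28.0, 34.9 and 25.4 CPM in early FLB and came to 2 reads over ES-FLB, a ratio of 351 (95% exact interval 96.9 to 2898). Fgf10, its partner in the mesenchyme, was at 71.4, 72.8 and 65.5 CPM in early FLB and 28.4, 31.7 and 25.5 CPM in ES-FLB, and fell by 1.28 on the log2 scale (± 0.08 SE, adjusted p = 2.4e-10). The receptor gene Fgfr1 rose from 218 to 524 CPM, and Fgf7, Fgf15 and Fgf18 rose while Fgfr3 fell. Of 14 genes that are known to respond to FGF, 6 fell and 1 rose (median -0.71): Etv4 and Etv5, the ETS factors of the distal mesenchyme, were at 12.7 CPM against 67.3 CPM and 34.0 CPM against 142 CPM, and Spry1, Spry4, Dusp4 and Il17rd fell with them. With CPM as deposited 3 of the list fell instead of 6. Dusp6, the phosphatase gene most often used as a readout, was at 120 CPM against 189 CPM and not called.

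In the BMP pathway 9 of 24 genes rose and 2 fell. Bmp4 rose from 84.9, 80.1 and 80.6 CPM to 200, 197 and 177 CPM, and Bmp7 fell from 78.3 to 23.2 CPM. The secreted BMP antagonists and modulators Chrd, Fst, Nog and Bmper rose to means of 6.38 to 12.4 CPM, while Grem1, at 24.1 to 29.2 CPM against 5.11 to 11.4 CPM, missed the threshold (adjusted p = 0.0022, limma). In the Wnt pathway 7 of 36 rose and 11 fell. The ligands of the ectoderm, Wnt7a, Wnt6, Wnt3 and Wnt7b, fell, and so did the transcription factor genes Tcf7 (182 CPM against 12.6 CPM) and Lef1 (176 CPM against 52.3 CPM). Axin2, a general target of the pathway, was at 159 CPM against 128 CPM and was not called, and Rspo1, Rspo3, Lgr5 and Dkk2, which tune Wnt signals, rose. In the RA pathway 4 of 18 rose and 5 fell, with a median of 0.44. Aldh1a2, which makes RA, was at 178, 170 and 166 CPM against 41.7, 43.0 and 46.8 CPM, and Aldh1a3 at 17.8 CPM against 0.174 CPM. Rarb, Crabp2 and the RA-degrading enzyme gene Cyp26a1, each known to be induced by RA, were among the 5 that fell: Rarb was at 8.93 CPM against 57.8 CPM, Crabp2 at 80.3 CPM against 319 CPM and Cyp26a1 at 0.679 CPM against 6.00 CPM.

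Markers of ectoderm, vessels and blood were mostly lower. Of 35 tested ectoderm and AER genes 23 fell and 2 rose (median -1.72). Trp63, the master factor of surface ectoderm, was at 67.1 to 75.2 CPM against 2.59 to 5.80 CPM, and Sp6, Sp8 and Dlx3, which the AER needs, at 81.9, 35.6 and 29.6 CPM against 2.75, 1.22 and 0.799 CPM. The differences were uneven. Epcam (54.0 CPM against 16.7 CPM) fell less, Cdh1 (53.4 CPM against 27.5 CPM), Tfap2a and Krt5 (26.0 CPM against 36.1 CPM) were not called, and the keratin genes Krt14 and Krt15 were the 2 that rose, to 7.53 and 12.2 CPM. Of 27 endothelial genes 24 fell and none rose (median -3.31); at an unadjusted p below 0.05 (limma) 25 were lower and 1 higher. Kdr, Cdh5 and Pecam1, defining genes of endothelium, had means of 113, 85.3 and 39.9 CPM against 8.16, 6.88 and 3.59 CPM. Of 11 tested erythroid genes 10 fell and none rose, by the unadjusted p too, against a background of 11.9% lower. Of the 11, 7 passed the filter on low values through early FLB alone, so their direction was largely fixed by the filter. Of the other 4 genes 3 fell. The median was -5.66, or -6.31 with Hemgn, listed at 0 in all ES-FLB libraries, set at its bound.

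Genes of the extracellular matrix rose broadly. Of 35 tested collagen genes 23 rose and 3 fell (65.7% and 8.57% of the list, against 17.2% and 11.9%), with a median of 1.66. The 3 main chains of collagen VI, a microfibril of fibroblasts and muscle, were its largest rises. Col6a1 was at 200, 179 and 191 CPM against 8.01, 7.79 and 10.2 CPM, Col6a2 at 230 CPM against 11.9 CPM and Col6a3 at 270 CPM against 10.3 CPM. The fibrillar genes Col3a1 (3946 ± 150 CPM against 507 ± 79.6 CPM; SD, n = 3) and Col1a2 (1380 CPM against 206 CPM) rose too, and Col12a1 rose from 13.5 to 97.0 CPM. Col1a1 was at 514, 399 and 426 CPM against 194, 161 and 314 CPM and was not called, with replicate 3 the highest of the early FLBs. Col18a1, of basement membranes, was the largest fall, from 400 to 64.0 CPM.

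Of 30 genes of tendon and connective tissue 19 rose and 2 fell (median 1.80). Tnc, tenascin C, was at 398, 394 and 412 CPM against 114, 108 and 120 CPM. Vcan, a large proteoglycan of young mesenchyme, was at 1908 CPM against 276 CPM, and Dcn, the small proteoglycan decorin, at 61.9, 63.4 and 63.7 CPM against 3.54, 3.06 and 7.58 CPM. Replicate 3 of the early FLBs had the highest Dcn of its group, and also the highest Lum, at 39.9 CPM beside 19.4 and 14.7 CPM, so that Lum missed the threshold despite 155 to 181 CPM in ES-FLB (adjusted p = 0.0026, limma). Fmod and Omd, proteoglycan genes of the same family, were the 2 that fell. Among 20 genes of cartilage and bone 11 rose and 4 fell: Sox9, the chondrocyte factor, rose from 23.5 to 55.6 CPM, Hapln1, which links hyaluronan to proteoglycans, fell from 123 to 5.21 CPM, and Col2a1 was at 95.1 CPM against 149.9 CPM and not called.

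Immediate early genes, which cells switch on within minutes of a stimulus, had the largest share of rises among the lists of at least 9 tested genes, 21 of 29 (72.4%), with 5 falls and a median of 1.58. Of the 29, 5 passed the filter on low values through ES-FLB alone, so the share is partly fixed by the filter. Of the other 24 genes 16 rose and 5 fell. The whole list summed to 2181 to 2837 CPM per ES-FLB library and 498 to 514 CPM per early FLB library. Egr1 was at 717, 468 and 710 CPM against 10.9, 12.2 and 12.1 CPM, Jun at 242 to 287 CPM against 26.1 to 36.9 CPM, Junb at 119 to 174 CPM against 14.7 to 17.0 CPM and Klf4 at 95.4 CPM against 2.23 CPM. Replicate 2 of ES-FLB was the lowest of its group for Fos, Fosb, Egr1, Egr2, Egr3 and Junb, and still above every early FLB library. The falls were Dusp5, Dusp2, Maff, Atf3 and Myc (47.7 CPM against 98.8 CPM). The promoters of 24 of these genes are in the RefSeq table (GRCm38.p6). The serum response element was searched by its core, named CArG box. The search pattern is its own reverse complement, so a search of either strand finds the same sites. A match starts within the 250 bases before the start site of 2 of the 24 (8.33%) and of 1.47% of all 32851 promoters. The 2 are printed, as 1 belongs to a gene that rose and 1 to a gene that fell; capitals mark the CArG boxes, which in Dusp5 form an adjacent pair. Zfp36, which encodes an RNA-decay factor, was at 39.0 to 53.9 CPM against 4.68 to 5.91 CPM (chr7:28379229-28379478, minus strand), and Dusp5, an ERK phosphatase gene, at 0.792 to 1.60 CPM against 10.4 to 12.5 CPM (chr19:53528895-53529144, plus strand).
Zfp36 promoter: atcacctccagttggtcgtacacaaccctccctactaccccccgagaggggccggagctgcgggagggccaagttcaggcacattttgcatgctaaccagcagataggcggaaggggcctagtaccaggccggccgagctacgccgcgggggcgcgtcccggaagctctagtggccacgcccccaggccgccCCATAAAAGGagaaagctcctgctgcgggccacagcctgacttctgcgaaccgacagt
Dusp5 promoter: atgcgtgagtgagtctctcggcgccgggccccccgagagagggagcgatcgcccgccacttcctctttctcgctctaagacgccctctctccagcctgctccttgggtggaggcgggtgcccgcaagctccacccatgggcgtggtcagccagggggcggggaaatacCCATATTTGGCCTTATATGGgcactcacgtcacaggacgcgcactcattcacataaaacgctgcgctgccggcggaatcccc

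Of 24 genes known to respond to glucocorticoids, a hormone class that the study's culture medium contained as hydrocortisone, 10 rose and 4 fell. The glucocorticoid receptor gene Nr3c1 rose from 3.74 to 25.1 CPM, and Ddit4, Hif3a, Crispld2 and the metallothionein genes Mt1 and Mt2 rose. Fkbp5, Zbtb16, Tgm2 and Errfi1, which are known responders too, were the 4 that fell (Fkbp5 from 122 to 55.0 CPM), and Tsc22d3 was at 44.3 CPM against 38.4 CPM and not called; with CPM as deposited 2 of the list fell. Of 21 known p53 targets 10 rose and 1 fell. Trp53inp1, which promotes cell death and autophagy, was at 162 to 177 CPM against 7.69 to 8.79 CPM, Ccng1 at 205 CPM against 40.7 CPM, Eda2r at 51.3 CPM against 3.47 CPM and the cyclin-dependent kinase inhibitor gene Cdkn1a at 48.0 CPM against 8.73 CPM. Mdm2 (79.9 CPM against 63.2 CPM), Bax (89.4 CPM against 89.5 CPM) and Aen were not called. Perp, the p53 target that fell, is also a gene of epithelia.

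Glycolysis was lower than in early FLB. Of 30 genes of hypoxia and glycolysis 12 fell and none rose (19 and 7 at an unadjusted p below 0.05, limma). Their sum was 3434 to 4492 CPM per ES-FLB library against 13009.6 to 13903 CPM. It was 5223 to 5514 CPM in E10.5 FLBs, 7280 to 8836 CPM in early HLB and 5017 to 5673 CPM in ES-HLB, all below early FLB. In the hindlimb pair 7 of 29 tested genes of the list were called higher and 4 lower. Ldha, lactate dehydrogenase, was at 534, 366 and 385 CPM against 3153, 3190 and 2985 CPM. Pgk1, Pgam1, Aldoa, Gapdh, Tpi1, Eno1, Pfkl and Gpi1, enzymes of the same path, fell by 1.40 to 2.20 on the log2 scale. Vegfa and Egln3, which are induced by hypoxia but are not glycolytic, were at 142 CPM against 77.5 CPM and 17.6 CPM against 9.52 CPM and not called; without replicate 2 of ES-FLB both were called higher (log2 1.02 and 1.06). Replicate 1 of ES-FLB was the highest of its group for Ldha, Pgk1, Aldoa, Slc16a3 and Vegfa. Cholesterol synthesis went the other way, with 8 of 25 genes higher and none lower (22 and 0 at an unadjusted p below 0.05, limma). Hmgcs1 was at 541, 559 and 563 CPM against 218, 287 and 219 CPM, and Mvd at 84.8 CPM against 31.3 CPM. The list summed to 3379 to 3587 CPM in ES-FLB and 1873 to 2349 CPM in early FLB, beside 2728 to 2793 CPM in E10.5 FLBs. In the hindlimb pair 1 of 25 was called higher and 0 lower.

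Ribosomal protein and cell cycle genes were mostly not called. None of 81 ribosomal protein genes rose, 7 fell, and their median was -0.75; at an unadjusted p below 0.05 (limma) 79 were lower and 0 higher, most by less than 2-fold. Rplp0, a protein of the ribosomal stalk, was the largest fall with a call, from 3179 to 899 CPM. Rpl26 had 0, 0 and 9.49 CPM in ES-FLB and 45.2 to 52.3 CPM in early FLB and was not called; ribosomal protein genes have many near-identical pseudogenes, so such values are uncertain. Of 49 cell cycle genes 3 rose and 6 fell (median -0.72, share lower near the background). At an unadjusted p below 0.05 (limma) 38 of them were lower and 6 higher. The cell cycle list summed to 8788 to 8954 CPM per ES-FLB library against 13063 to 13215 CPM per early FLB library. Ccne1, cyclin E1, fell from 181 to 44.5 CPM, Mki67 was at 704 CPM against 561 CPM and not called, and the 3 rises were the inhibitor genes Cdkn1a, Cdkn1b (72.9 CPM against 24.0 CPM) and Cdkn2c. These medians shift with the scaling: with CPM as deposited the median of the ribosomal protein genes was -0.52, with 2 falls, and that of the cell cycle genes -0.50, with 2 falls, while a trimmed mean over the compared libraries alone gave 13 falls of ribosomal protein genes.

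Imprinted genes changed in both directions, 13 of 38 higher and 9 lower. Igf2, the growth factor, was at 3641, 3724 and 3598 CPM in early FLB and 134, 113 and 119 CPM in ES-FLB. H19, which shares its imprinted domain with Igf2, was at 11458 ± 260 CPM against 6014 ± 285 CPM (SD, n = 3), a log2 difference of 0.93 that is not called. At the other well-known domain, the paternally expressed Dlk1 and Rtl1 fell (Dlk1 from 473 to 21.3 CPM), while the maternally expressed RNAs Meg3, Rian and Mirg rose, Meg3 to 1302, 1045 and 982 CPM from 168, 117 and 154 CPM. Mest and Grb10 fell and Igf2r and Zim1 rose. In the IGF pathway 8 of 15 genes rose and Igf2 alone fell: Igf1 was at 98.4, 104 and 106 CPM against 6.34, 5.30 and 6.58 CPM, and Igfbp3, Pappa and Pappa2 rose. Of 14 genes of DNA methylation Dnmt3a (433 CPM against 159 CPM), Tet2 and Zfp57, a guardian of imprints, rose, and Dnmt3b and Uhrf1 fell. Xist was close to absent in ES-FLB, the Y-linked genes Ddx3y, Uty, Eif2s3y and Kdm5d were detected in all 6 libraries, and of these 4 Uty rose (38.9 CPM against 17.4 CPM).

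**Figure D4:**
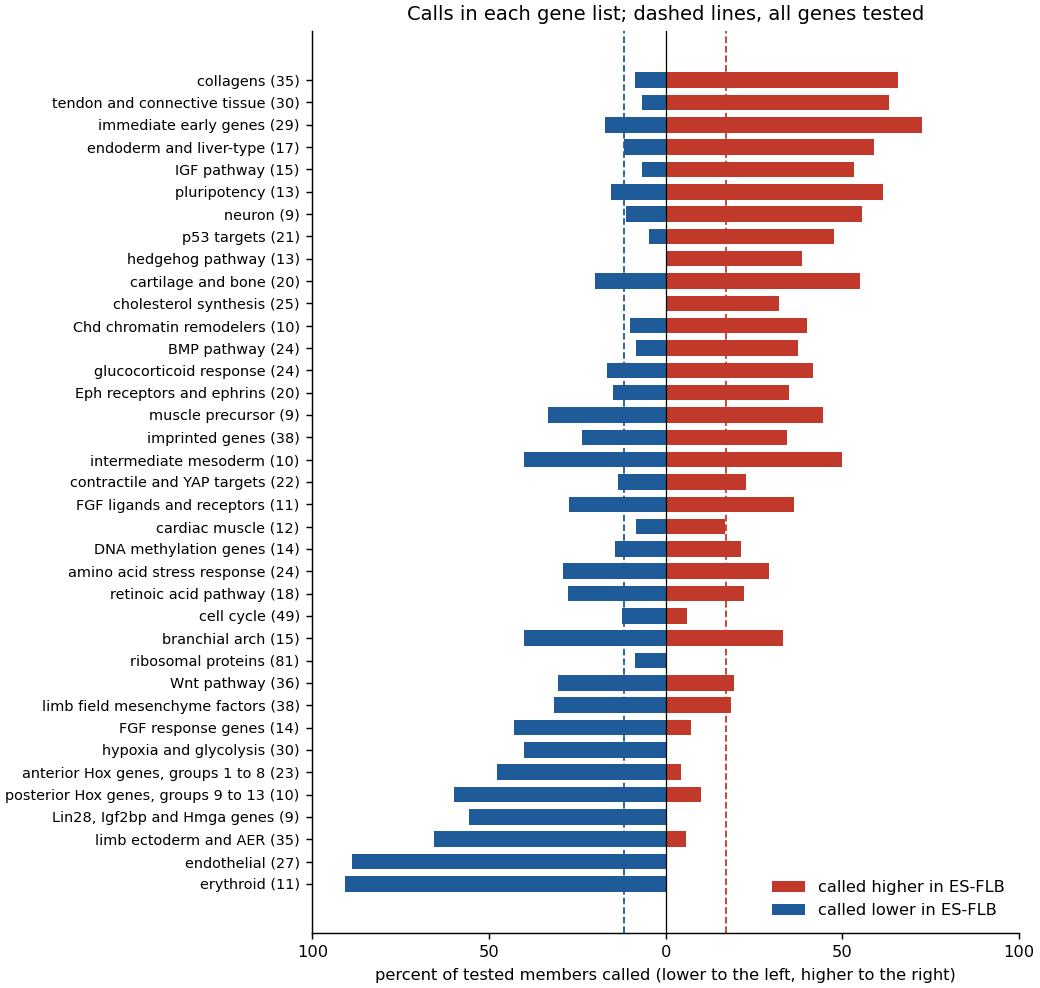
Share of the tested members of 37 gene lists that were called higher (red, to the right) or lower (blue, to the left) in ES-FLB, with the number tested in brackets; dashed lines mark 17.2% and 11.9%, the shares of all genes tested. Immediate early, collagen and connective tissue genes extend farthest to the right, and erythroid, endothelial and ectoderm genes farthest to the left.

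The hindlimb pair, ES-HLB against early HLB, uses 6 other libraries. There 15.6% of the genes tested were higher and 9.26% lower in vitro. Of the forelimb rises 1582, or 70.2%, were called higher in the hindlimb pair too, which is 76.6% of the hindlimb rises, and of the forelimb falls 1000, or 63.9%, which is 81.8% of the hindlimb falls. Genes called in opposite directions numbered 2 among the forelimb rises and 7 among the falls. Of the 12 largest rises 11 were called in the hindlimb pair and 2610203C20Rik was not; its early HLB libraries held 6.10, 0.846 and 0.720 CPM. All 12 of the largest falls were called there.

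The difference between the 2 effects, forelimb minus hindlimb, was tested over the 12 libraries and was called above 0 for 213 of 13627 genes (1.56%) and below 0 for 283 (2.08%), 3.64% together. Chd3 and Slitrk6 were among those above 0. Chd3 differed by 1.65 ± 0.07 SE (adjusted p = 6.4e-13), with 587 to 635 CPM in ES-HLB and 123 to 133 CPM in early HLB, and Slitrk6 by 2.81 ± 0.25 SE (adjusted p = 2.4e-05), with 148 to 149 CPM against 32.8 to 60.3 CPM. Among genes with at least 16 CPM in 1 of the 4 groups and no overlap in the forelimb pair, the 5 largest differences above 0 were those of Rxfp2, a relaxin-family receptor gene (30.9 CPM in ES-FLB, 0.571 to 2.97 CPM in the ES-HLB and early HLB libraries), Hoxc10, the forkhead gene Foxf2, Rspo1 and Gli1. The difference for Gli1 was lost in 8 of 12 fits without 1 library (adjusted p up to 0.0014, limma), and early HLB replicate 1 held 40.2 CPM of it beside 17.0 and 19.1 CPM. Hoxc10 was at 102 to 113 CPM in early HLB and 23.7 to 28.6 CPM in ES-HLB, so that it fell in the hindlimb pair and rose in the forelimb pair. By the same conditions the 5 largest below 0 were those of Fmod, Hbb-bh1, Hoxb1, Krt19 and the chemerin receptor gene Cmklr1. That of Hbb-bh1 was lost in 12 of 12 such fits (adjusted p 0.0010 to 0.0025, limma). Fmod, fibromodulin, fell from 4.66 to 0.502 CPM in the forelimb pair and rose from 4.81 to 23.4 CPM in the hindlimb pair.

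**Figure D5:**
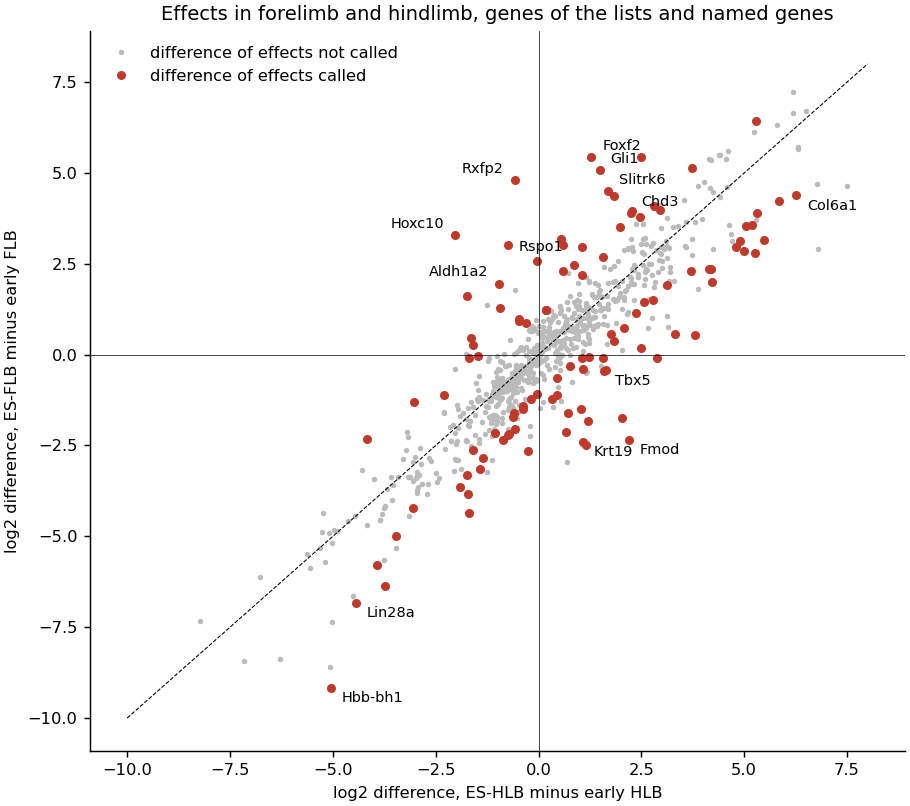
Log2 difference in vitro minus embryo for 831 genes of the lists and named genes, in the hindlimb pair (horizontal) and the forelimb pair (vertical); red, the 107 genes whose difference between the pairs was called; dashed line, equal effects. Rxfp2, Hoxc10, Gli1, Slitrk6 and Chd3 lie above the line, and Fmod, Krt19, Tbx5 and Col6a1 below it.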

How the data were processed

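Single-end RNA-seq of poly(A) RNA was analysed for 6 of 27 libraries, with 6 hindlimb libraries and E10.5 FLBs beside them. The authors mapped reads with HISAT2 2.0.4 to mm10, counted them with Cuffdiff (Cufflinks 2.1.1 in the submitters' processing notes, a later version in the study's methods) and deposited CPM made with edgeR 3.16.2; FastQC 0.11.5 is also listed, and the strand setting of the counting is not given in the sources used here. CPM sums to 1000000 per library and hides RNA amount per cell. Depth was estimated from the CPM of 1 read: within 0.02 reads of a whole number lay 98.7% to 98.8% of values under 200 reads in ES-FLB and 93.7% to 94.2% in early FLB.

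CPM was divided by trimmed-mean factors over all 27 libraries (trims of 30% and 5%), genes reaching 1 CPM in 3 or more libraries of a comparison were kept, and log2(CPM + 0.5) was tested with limma 3.58.1 (trend, robust; R 4.3.3) with Benjamini-Hochberg adjustment. For low genes this scale gives too small a fold change. A call needs an adjusted p below 0.001 and 2-fold. The difference between limb types was tested as an interaction over 12 libraries. On simulated data, limma recovered 200 of 200 changed genes with 0 false calls for the main comparison. For the interaction it recovered 196 of 200, also with 0 false calls. The changed genes were set to differ by 1.5 to 4 on the log2 scale, among 12982 and 13334 genes tested. Recovery nearer the 2-fold minimum, or with 29.1% of genes called as in the main comparison, was not tested. Exact intervals cover counting error only. Tables and plots used Python 3.11.15, numpy 2.4.6, pandas 2.3.3 and matplotlib 3.10.9.

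Named genes are the 12 largest called differences in each direction whose higher group averages 16 CPM or more and whose libraries do not overlap, the 5 largest interactions in each direction under like conditions, Chd3, Slitrk6, members of 43 lists with preference for defining members and the highest values, and Tbx5, Hand2, Col12a1, Col6a1, Tnc, Dcn, Egr1, Pbx2, Fgf10, Hoxd9, Hoxd10 and Hoxd11, which the study's text names; some genes are not reported here. The members and lists were chosen with earlier results of these data known. Sequences and gene positions are from RefSeq, GRCm38.p6. Alternatives were other scalings, filters, pseudocounts, thresholds, limma settings, a replicate block and leaving out each library.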

Additional observations from a re-analysis of the deposited data

Results flagged for a closer look

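For 66 of the genes described, the in vitro effect differed between the limb types by the test of the difference itself (forelimb minus hindlimb, log2, limma, 12 libraries, adjusted p below 0.001 and at least 1 on the log2 scale; background 1.56% above 0 and 2.08% below 0). These genes were partly picked by that test, so their number is a description.

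Above 0 stood Rxfp2 (5.39), Hoxc10 (5.32), Foxf2 (4.15), Rspo1 (3.75), Gli1 (3.59), Grem1 (3.35), Mab21l1 (2.95), Aldh1a2 (2.92), Slitrk6 (2.81), Isl1 (2.63), Crispld2 (2.63), Gsc (1.91), Emx2 (1.85), Hoxd11 (1.73), Ptch1 (1.69), Pappa2 (1.67), Chd3 (1.65), Epha4 (1.62), Slitrk1 (1.52), Hoxa5 (1.44), Klf4 (1.42), Hhip (1.33), Aldh1l2 (1.30), Nfix (1.14), Foxc1 (1.13), Bmp4 (1.03) and Igf1 (1.02). The hedgehog targets Gli1, Ptch1 and Hhip are among them. Replicate 1 of the early HLBs held 40.2 CPM of Gli1 beside 17.0 and 19.1 CPM. The difference for Gli1 was no longer called in 8 of the 12 fits that left out 1 library, and that for Hhip in 9 of 12. Both were also lost with the replicate block, and Hhip with no filter, a pseudocount of 0.25 and limma without trend and robust (adjusted p up to 0.0085, limma); Ptch1 kept its call in all 12.

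Below 0 stood Fmod (-4.55), Hbb-bh1 (-4.12), Hoxb1 (-4.10), Cyp26a1 (-3.64), Krt19 (-3.47), Gata4 (-3.25), Cmklr1 (-2.80), Cdx1 (-2.65), Col12a1 (-2.45), Lin28a (-2.39), Fgf15 (-2.16), Trim71 (-2.11), Tbx5 (-2.04), Col6a1 (-1.88), Igdcc3 (-1.85), Fst (-1.84), Nanog (-1.80), Sall4 (-1.73), Etv2 (-1.73), Col6a2 (-1.63), Sox2 (-1.62), Fgfr3 (-1.57), Dusp4 (-1.55), Hoxd9 (-1.52), Dppa5a (-1.48), Aldoa (-1.48), Pgk1 (-1.46), Dkk2 (-1.42), Ttr (-1.42), Zim1 (-1.20), Lin28b (-1.18), Eno1 (-1.12), Col2a1 (-1.09), Dnmt3b (-1.09), Spry4 (-1.04), Col18a1 (-1.04), Errfi1 (-1.03), Gpi1 (-1.02) and Spry1 (-1.01). Tbx5 was at 2.28 to 4.12 CPM in ES-HLB and 0.554 to 0.899 CPM in early HLB. Hbb-bh1 was not called in any of the 12 fits that left out 1 library.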

How the results depend on the processing

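The main setting called 3817 genes (2253 higher, 1564 lower), and 2865 to 4110 genes in all were called under other scalings, filters, pseudocounts, limma without trend and robust, or all 12 libraries in one model. With CPM as deposited the split was 2824 higher and 1091 lower. An adjusted p below 0.05 with no fold minimum gave 10769 genes (5359 and 5410), and for the difference between limb types 3051 (1396 above 0 and 1655 below) in place of 496. Limma without trend and robust gave 185 below 0 in place of 283; the cause was not tested. Leaving out 1 library gave 3681 to 3815 genes, and 384 to 483 for the difference. Replicate numbers did not pair the libraries (deviations of same-numbered libraries correlated at 0.018, 0.0085 and -0.011); with the replicate number as a block 3821 genes were called, and 453 for the difference.

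Of the log2 differences of named genes 26 changed sign, all of 10 genes that were not called. With CPM as deposited they were Chd4 (0.0524), Slitrk4 (0.17), Hoxb5 (0.208), Hoxa5 (0.201), Sufu (0.0609), Tfap2a (0.148), Bax (0.227); with median-ratio size factors Slitrk4 (0.0394), Hoxb5 (0.0446), Hoxa5 (0.0364), Bax (0.0618); and with the trimmed mean over the compared libraries Pitx1 (-0.0532), Gli2 (-0.051). Over the fits that left out 1 library the sign varied for Slitrk4 (-0.129 to 0.186), Pitx1 (-0.211 to 0.325), Hoxb5 (-0.0716 to 0.0171), Hoxa10 (-0.153 to 0.314), Gli2 (-0.0213 to 0.0547) and Bax (-0.0419 to 0.0434). In these fits 17 called genes lost a call at least once, with adjusted p (limma) up to 0.0064 or differences down to 0.89: Chd6, Hoxd11, Il17rd, Dcn, Egr3, Atf3, Myc, Mt2, Aldoa, Tpi1, Pfkl, Meg3, Pappa, Apob, Laptm5, Hand1 and Cyr61. The difference between limb types lost its call at least once for 24 genes: Gli1, Nfix, Hbb-bh1, Slitrk1, Emx2, Etv2, Hoxd9, Hoxd11, Hhip, Fgfr3, Spry1, Spry4, Col12a1, Col18a1, Errfi1, Aldoa, Gpi1, Igf1, Nanog, Dppa5a, Ttr, Sox2, Gsc and Foxc1.

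Without replicate 3 of the early FLBs Lum (3.31), Acta2 (1.18), Tbx15 (-1.79), Hoxa11 (-1.37), Gli3 (-1.04), Grem1 (1.31) and Kdm5d were called, Grem1 (1.85) and Kdm5d (-1.11) also without replicate 2. Without replicate 1 of the early FLBs Afp (6.52), Shh (2.13) and Ddx3y (1.04) were called, without replicate 1 of ES-FLB Slc16a3 (-3.28) and Ddx3y (1.03), without its replicate 2 Vegfa (1.02) and Egln3 (1.06), and without replicate 3 of ES-FLB Rpl26 (-6.63), Tbx4 (1.82) and Cdh1 (-1.19). With CPM as deposited Hand2 (1.05) and H19 (1.16) were called. Tests on whole reads with edgeR and DESeq2, and thinning to equal depth, were not run, as too few values of the early FLBs came out as whole reads (93.7% to 94.2% of those under 200 reads). Depth limits low genes: early FLBs were read more deeply, so a gene at 0 in ES-FLB is bounded less tightly.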

Other observations

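Markers of cell types outside limb mesenchyme were detected in ES-FLB at levels that differed by list. Genes of endoderm and liver-type cells summed to 229 to 251 CPM per ES-FLB library against 127 to 143 CPM. Neuron genes summed to 131 to 137 CPM against 42.4 to 52.5 CPM, and neural crest and glia genes to 39.3 to 50.3 CPM against 24.9 to 31.4 CPM. Leukocyte genes were lower, at 3.46 to 6.05 CPM against 6.53 to 7.43 CPM. Of 20 listed pluripotency genes 13 were tested, 7 of which reached 1 CPM in ES-FLB alone; of the other 6, Klf4 rose and Lin28a and Sall4 fell. Summed over the list the level was lower, 959 to 972 CPM in ES-FLB against 1739 to 1833 CPM. Pou5f1, the factor Oct4, was at 5.31, 2.64 and 4.57 CPM against 1 read over the 3 early FLB libraries, a ratio of 243 (95% exact interval 42.7 to 9708), and Nanog at 1.98 to 3.45 CPM against 0 to 0.158 CPM. Dppa5a was at 4.49 to 6.05 CPM and listed at 0 in early FLB, at least 104-fold higher. Of 17 tested genes of endoderm and liver-type cells 7 likewise passed through ES-FLB alone, and of the other 10 genes 4 rose and 2 fell. Apob, an apolipoprotein, was at 24.6 to 36.6 CPM against 0.204 to 1.92 CPM and Ttr at 7.66 to 10.4 CPM against 0.102 to 0.260 CPM. Afp, alpha-fetoprotein, was at 43.8 to 53.1 CPM against 5.20, 0 and 0.0527 CPM and was not called. Neuron genes rose in 5 of 9 and fell in 1, and 2 of the rises passed through ES-FLB alone. Nefm, a neurofilament, was at 59.0 CPM against 3.92 CPM and Dcx at 3.65 CPM against 21.3 CPM. Neural crest and glia had 2 rises, Sox2 and Fabp7, and 1 fall, Erbb3, of 7, and both rises passed through ES-FLB alone. Leukocyte genes had 1 fall of 3, Laptm5, which passed through early FLB alone. How many cells carry these RNAs was not measured.

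Muscle precursor genes split, 4 higher and 3 lower of 9. Pax3, Lbx1 and Met, which mark migrating precursors, were at 0.591, 2.06 and 16.7 CPM against 9.40, 6.26 and 42.1 CPM. At an unadjusted p below 0.05 (limma) 6 genes of the list were higher and 3 lower. The summed level of the list was higher, 281 to 284 CPM per ES-FLB library against 132 to 142 CPM, and its rises are not named here. Of 12 cardiac genes 2 rose, 1 fell. Branchial arch genes rose in 5 and fell in 6 of 15, Gsc being at 23.0 CPM against 2.54 CPM and Hand1 at 4.11 CPM against 36.4 CPM. Intermediate mesoderm genes rose in 5 and fell in 4 of 10 (Foxc1 at 43.6 CPM against 6.35 CPM, Wt1 at 3.44 CPM against 11.4 CPM). Tail bud and somite genes rose in 4 and fell in 4 of 8. Foxd1, 1 of the rises, was at 27.4 CPM against 1.85 CPM, and the falls are not named here. The summed level of the tail bud and somite list was lower, 64.7 to 78.6 CPM per ES-FLB library against 101 to 106 CPM. Among members that reached 1 CPM in both groups, arch genes rose in 2 and fell in 5 of 11. Intermediate mesoderm genes rose there in 4 and fell in 2 of 7, and tail bud and somite genes in 2 and 2 of 4. Among hindlimb selectors 1 of 3, Isl1, rose. Eph receptors and ephrins rose in 7 and fell in 3 of 20, led in level of change by Epha5, Epha8 and Epha4, the last at 273 ± 5.87 CPM against 48.6 ± 1.93 CPM (SD, n = 3). Amino acid stress genes rose in 7 and fell in 7 of 24: Aldh1l2, a mitochondrial folate enzyme, was at 34.2 CPM against 1.52 CPM, and Atf4, the pathway's transcription factor, at 130.4 CPM against 268 CPM. Contractile genes and YAP targets rose in 5 and fell in 3 of 22, Cyr61 at 158 CPM against 19.1 CPM and Amotl2 at 17.8 CPM against 84.8 CPM.

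Hprt, an X-linked enzyme gene of purine salvage picked out after its values were seen, was at 1.98, 1.06 and 1.60 CPM in ES-FLB and 91.7, 91.8 and 87.3 CPM in early FLB.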
